A study of Mus musculus with 12 samples.

Results

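Surface proteins and cytoskeletal filaments are the handles by which adult neural stem cells (NSCs) are stained, sorted and traced. The 9 genes followed here are Prom1, Vcam1, Cd9, Cd81, Cd44, Nes, Vim, Msi1 and Fut4, all found by symbol among the 17365 genes of the count table and grouped for that use. Their transcripts were compared in 12 RNA-seq libraries of mouse NSC cultures, 4 from each of 3 conditions. The cells came from the subventricular zone (SVZ), the germinal layer lining the lateral ventricle, of mice 6 to 8 weeks old, and grew on laminin in serum-free medium with N2 and B27. EGF/FGF cultures received EGF and FGF2 and proliferated. BMP cultures received BMP4 alone for 3 days and are the model of dormant quiescence (d-qNSCs), and BMP/FGF cultures received BMP4 with FGF2 for the same 3 days and are the model of primed quiescence (p-qNSCs). Every factor was given at 10 ng/ml. In each condition 2 libraries were of the ANS4 line (strain MF1) and 2 of the BL6 line (strain C57BL/6), so that line and strain cannot be told apart. The study calls its RNA-seq replicates biological, but no source used here says whether they were separate cultures, so p-values measure the spread between these libraries, which may be technical in part.

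In the SVZ, quiescent NSCs are GFAP-expressing cells that touch the ventricle with a small apical process and the vasculature with a basal one, and they give rise to activated NSCs, transit amplifying cells and neuroblasts. PROM1 (CD133), a cholesterol-binding pentaspan protein of membrane protrusions and cilia, and VCAM1, an immunoglobulin-family adhesion molecule and ligand of the integrin made of ITGA4 and ITGB1, sit on that apical process. CD9 and CD81 are tetraspanins, small membrane proteins that gather integrins and other partners into microdomains, and CD44 is the main receptor for hyaluronan. Nestin and vimentin are type VI and type III intermediate filament proteins, MSI1 is an RNA-binding protein of neural progenitors, and FUT4 is a fucosyltransferase able to build the Lewis x epitope (CD15, SSEA-1) used in sorting. Nestin protein is widely used to tell activated from quiescent NSCs. All values below are of RNA, and in bulk samples fewer cells with a transcript and less transcript per cell cannot be told apart.

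Library totals lay between 18069052 and 19451818 counts (median 18679799), with scaling factors of 0.972 to 1.03, and 3 counts equalled 0.155 to 0.168 CPM, the usual scale of counts relative to library size. Levels are given on that scale after trimmed mean of M-values (TMM) scaling. The label was checked against NSC markers, which summed to 4719 to 5376 CPM in EGF/FGF, 5151 to 6066 under BMP and 6829 to 7253 under BMP/FGF over 9 of 9 genes. Much of this sum was Slc1a3, which rose (1182, 3056 and 3692 CPM on average), and Fabp7, which fell (2409, 475 and 1385 CPM). The rise of the sum was therefore not shared by all 9 genes. Of the markers of endothelial cells, microglia and fibroblasts, Pecam1, Csf1r and Lum were at most 0.447, 0.103 and 0.103 CPM in any library. Other listed markers were higher, among them endothelial Flt1, microglial Itgam and mural Acta2, which reached 45.6, 12.7 and 7.71 CPM. The replicates of BL6 in BMP differed most from each other, by 12.2 times the counting noise (chi-square over degrees of freedom across 13312 genes) against 2.12 to 4.68 in the other 5 pairs, and counts of markers between the lines are given also without either of them. Of the 9 genes, 8 passed edgeR's expression filter, and Fut4, with 0 to 20 counts, did not.

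The transition from EGF/FGF to quiescence separated the markers. Nes fell about 4.50-fold in BMP and 4.92-fold in BMP/FGF. Vcam1 rose 3.09-fold and 4.47-fold, and Vim, Msi1, Cd81, Cd9 and Prom1 rose in both quiescent states by 1.23-fold to 2.41-fold. Between the quiescent states themselves, FGF2 on top of BMP4 went with more Vcam1, Cd9, Cd81 and Cd44, with less Prom1, and with little difference in Nes, Vim or Msi1. In BMP against EGF/FGF, 8 of the 8 tested markers passed a false discovery rate (FDR, Benjamini-Hochberg adjusted p of edgeR's quasi-likelihood test) under 0.05, 6 of them higher and 2 lower, where 79.6% of all 13312 tested genes passed. In BMP/FGF against EGF/FGF 8 passed, 7 higher and 1 lower, against 78.9% of all genes, so these counts are near the background and what separates the markers is the size and direction of each change. In BMP/FGF against BMP 5 passed, 4 higher and 1 lower, against 41.4%. A log2 fold change beyond 1.5 was reached by Vcam1 and Nes in BMP and again in BMP/FGF, where 17.8% and 16.7% of all genes reached it, and by 0 markers between the quiescent states, where 1.59% did.

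The 4 libraries of each condition did not overlap for 8 of 8 markers between BMP and EGF/FGF (71.1% of all genes), for 7 of 8 between BMP/FGF and EGF/FGF (75.8%), with Cd44 the exception, and for 5 of 8 between BMP/FGF and BMP (35.6%). The median log2 fold change over the 8 markers was 0.71, 0.74 and 0.19 in these 3 comparisons, beside 0.02, 0.02 and -0.0035 over all tested genes. Comparisons that share a condition also share its libraries, so they are not independent of each other.

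**Figure D1:**
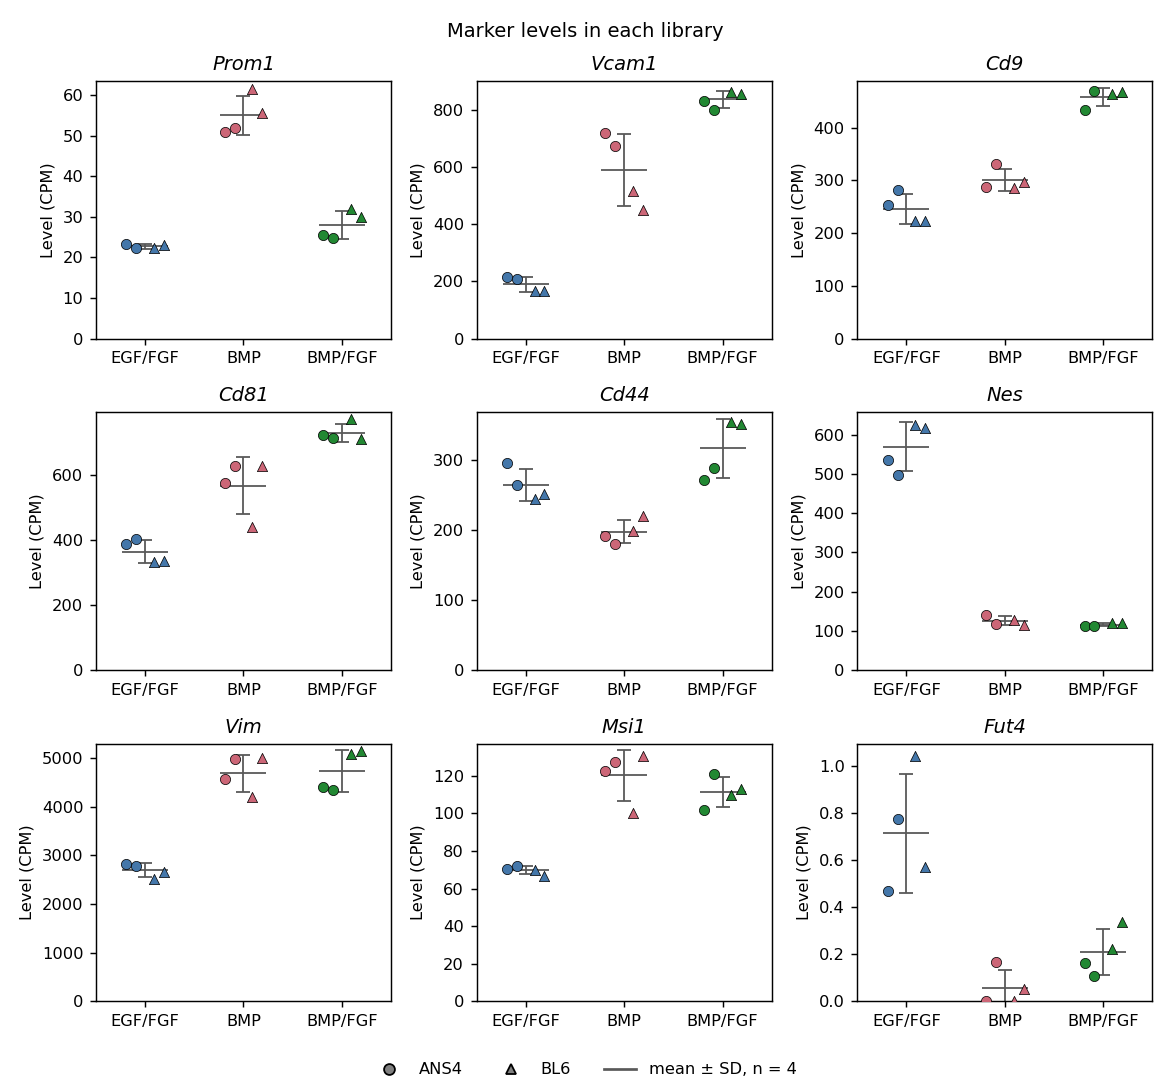
Level of each of the 9 markers in every library, in CPM on linear axes that start at 0, by condition (circles ANS4, triangles BL6; the horizontal mark and bar are the mean and SD of 4 libraries). Nes stands between 498 and 625 CPM in EGF/FGF and between 112 and 141 in the other conditions, Vcam1 climbs from 166 to 216 CPM to 797 to 861 in BMP/FGF, and Prom1 is highest in BMP.

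**Figure D2:**
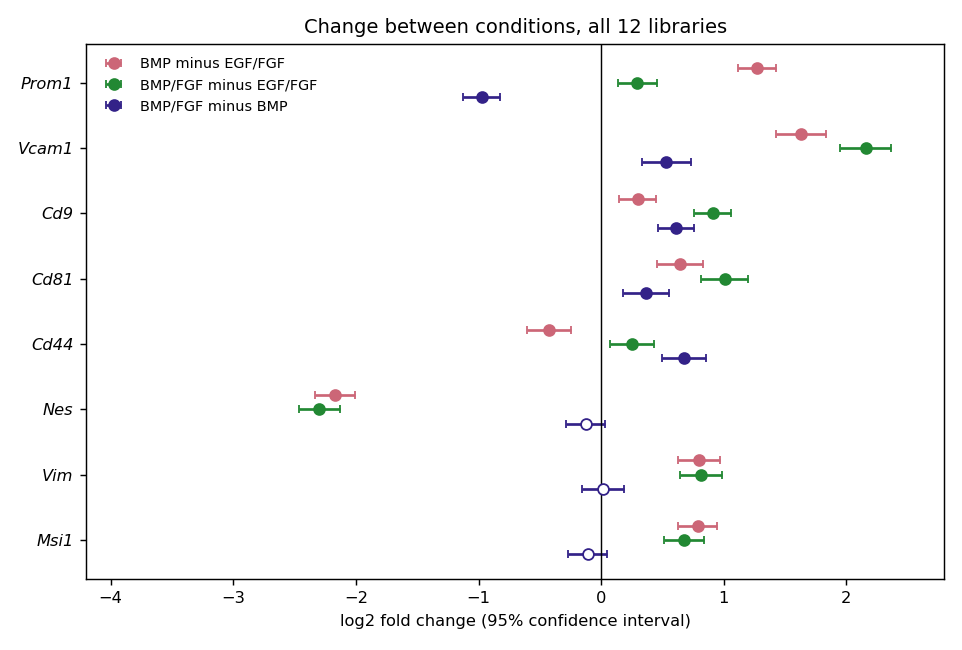
Log2 fold change with its 95% confidence interval for the 8 tested markers in the 3 comparisons, from the fit over all 12 libraries. Filled points passed an FDR under 0.05 and open points did not: Nes, Vim and Msi1 in BMP/FGF against BMP are the 3 open points, and Prom1 is the only one of the 8 whose BMP/FGF minus BMP change is filled and below 0.

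The intermediate filament genes moved in opposite directions. Nes (chr3:87971078-87980451, plus strand, GRCm38, 4 exons in its longest transcript) encodes nestin. Its level was 535 and 498 CPM in the ANS4 libraries and 625 and 618 in the BL6 libraries of EGF/FGF. In BMP the ANS4 libraries held 141 and 119 CPM and the BL6 libraries 129 and 116. In BMP/FGF they held 112 and 112 CPM and 119 and 119. All 4 proliferating libraries therefore stood far above all 8 quiescent ones, while the quiescent states overlapped. Nes fell by 2.17 on the log2 scale in BMP (SE 0.08, FDR 3.49e-14) and by 2.30 in BMP/FGF (SE 0.08, FDR 1.80e-14). The BMP/FGF minus BMP difference was -0.13 (95% confidence interval -0.29 to 0.03, FDR 0.194), and in ANS4 alone it reached -0.21 with an FDR of 0.0382. The residual level was not close to the counting limit, since the lowest Nes count was 2076.

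Vim (chr2:13573927-13582826, plus strand, 9 exons), encoding vimentin, was among the most abundant transcripts of these cells and ranked 8 in EGF/FGF, 5 in BMP and 6 in BMP/FGF among the 17365 genes by mean CPM, with 0.252 to 0.515% of all counts. In EGF/FGF it was at 2824 and 2779 CPM in ANS4 and 2513 and 2651 in BL6. In BMP it was at 4565 and 4984 CPM and at 4195 and 4996, and in BMP/FGF at 4394 and 4333 and at 5073 and 5139. Every quiescent library was above every proliferating library, and the quiescent conditions overlapped. Vim rose by a log2 fold change of 0.80 in BMP (SE 0.08, FDR 4.83e-08) and of 0.81 in BMP/FGF (SE 0.08, FDR 4.15e-08). The difference between the quiescent states was 0.01 (95% confidence interval -0.15 to 0.18, FDR 0.903), and its sign turned under 6 of 22 alternative settings. This pooled value joined lines of opposite sign. Fitted with a separate mean per line and condition, it was -0.13 in ANS4 (FDR 0.166) and 0.15 in BL6 (FDR 0.0845). The difference between the lines did not pass its test (0.28, SE 0.10, FDR 0.0649). Within a library, the count ratio of Vim to Nes ran from 4.02 to 5.58 in EGF/FGF, from 32.4 to 43.2 under BMP and from 38.7 to 43.2 under BMP/FGF, a ratio that shows unequal change and not which gene moved.

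The sequences just upstream of the start sites of Nes and Vim are shown because the filament genes moved oppositely, and those of Cd9 and Cd81 because these tetraspanin genes moved the same way. Each is the 150 bases before the RefSeq start (GRCm38.p6), written 5′ to 3′ on the gene's strand in lower case. Capitals mark matches on either strand to the core promoter element TATAAA, to the box GGGCGG bound by factors of the Sp family, to the box CCAAT bound by the NF-Y factor, to the element GGCGCC bound by Smad proteins and to the AP-1 element, spelled TGANTCA. Matches to GGGCGG and to the Smad element can overlap. The windows lie at chr3:87970943-87971092 (Nes, plus strand), chr2:13574161-13574310 (Vim, plus strand), chr6:125494761-125494910 (Cd9, minus strand) and chr7:143052600-143052749 (Cd81, plus strand).
Nes: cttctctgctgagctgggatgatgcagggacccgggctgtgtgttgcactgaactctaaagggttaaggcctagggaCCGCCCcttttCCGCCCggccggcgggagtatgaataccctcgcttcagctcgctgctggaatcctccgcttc
Vim: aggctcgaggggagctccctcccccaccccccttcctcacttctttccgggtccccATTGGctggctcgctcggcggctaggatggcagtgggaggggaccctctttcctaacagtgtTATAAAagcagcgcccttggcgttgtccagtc
Cd9: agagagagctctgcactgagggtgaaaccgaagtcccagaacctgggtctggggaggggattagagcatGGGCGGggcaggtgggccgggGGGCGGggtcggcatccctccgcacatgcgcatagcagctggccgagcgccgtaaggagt
Cd81: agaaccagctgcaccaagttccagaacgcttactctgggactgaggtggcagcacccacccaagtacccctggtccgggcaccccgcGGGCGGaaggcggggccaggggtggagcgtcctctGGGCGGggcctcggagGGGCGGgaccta

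The Vim window held a TATAAA match 32 to 27 bases before the start and a CCAAT match on the opposite strand, and no GC box (GGGCGG). The Nes window held 2 GC boxes on the opposite strand, Cd9 held 2 and Cd81 held 3 on their own strand, and none of these 3 held a TATAAA match. Over all 32851 RefSeq windows of this length, 7.57% held the TATAAA element, 28.6% a GC box, 24.5% a CCAAT box, 7.01% the Smad element and 4.24% the AP-1 element. The GC content of the windows was 60.7% for Nes, 62.7% for Vim, 66.7% for Cd9 and 70.0% for Cd81, beside a median of 54.0% over all windows. RefSeq windows were matched for 7 of the 9 markers. Of the other matched windows, that of the upstream Prom1 start held an AP-1 match 88 to 82 bases before it. The same window held a GC box 62 to 57 bases and a CCAAT box 35 to 31 bases before the start. The Fut4 window held a Smad element, and the second Prom1 window and the Cd44 window held none of these elements. These are matches of letters and no evidence of binding.

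Msi1 (chr5:115429599-115455698, plus strand, 15 exons) encodes Musashi-1, a translational regulator. It stood at 70.2 and 71.8 CPM in ANS4 and 70.0 and 66.6 in BL6 in EGF/FGF. In BMP it reached 123 and 127 CPM and 100 and 130, and in BMP/FGF 102 and 121 CPM and 110 and 113. All 4 proliferating libraries lay below all 8 quiescent libraries, which overlapped between conditions. Msi1 rose by a log2 fold change of 0.79 in BMP (SE 0.08, FDR 3.16e-08) and of 0.68 in BMP/FGF (SE 0.08, FDR 2.65e-07). The BMP/FGF minus BMP difference was -0.11 (95% confidence interval -0.27 to 0.05, FDR 0.255), but without BL6 BMP replicate 1, the lowest of its condition, it was -0.19 with an FDR of 0.0299.

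Prom1 (chr5:43993620-44102032, minus strand, 25 exons) was the marker highest under BMP4 alone, with no overlap with the other conditions. The EGF/FGF libraries held 23.3 and 22.3 CPM in ANS4 and 22.2 and 23.1 in BL6. The BMP libraries held 50.9 and 51.8 CPM and 61.5 and 55.7, and the BMP/FGF libraries 25.6 and 24.7 CPM and 31.8 and 29.9. No library of one condition reached into another, yet BMP/FGF stayed close to EGF/FGF. The level was 1.27 log2 units higher in BMP than in EGF/FGF (SE 0.07, FDR 2.02e-11) and 0.30 higher in BMP/FGF than in EGF/FGF (SE 0.07, FDR 0.00154). That smaller rise was 0.14 in ANS4 alone (FDR 0.123) and 0.45 in BL6 by the 6-group fit (FDR 1.34e-04), and the difference between the lines did not pass its test (0.30, SE 0.12, FDR 0.169). BMP/FGF was below BMP in both lines, by 1.03 on the log2 scale in ANS4 (FDR 4.21e-08) and 0.92 in BL6 (FDR 5.14e-08).

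PROM1 is also a protein of multiciliated ependymal cells. Of 4 tested ependymal markers (7 listed), 3 were higher and 0 lower than in EGF/FGF in BMP and again in BMP/FGF. In BMP/FGF against BMP 0 were higher and 2 lower. These were Cfap126 (log2 difference -0.88, FDR 4.93e-07) and Dynlrb2 (-0.57, FDR 0.00148), beside -0.98 for Prom1 over all libraries. The summed level of ependymal markers over 6 genes of 7 listed was 63.5 to 84.7 CPM in EGF/FGF, 231 to 281 under BMP and 221 to 228 under BMP/FGF. Most of it was Foxj1, at 59.6, 194 and 181 CPM on average. Cfap126 averaged 1.33, 45.9 and 24.9 CPM and Dynlrb2 0.828, 9.62 and 6.46 CPM, while Rarres2 was at 10.3, 11.4 and 11.8 CPM and Ccdc153 and Ak7 at most 0.485 and 0.415 CPM in any library. Neuroblast markers summed to 453 to 508 CPM, 853 to 1502 and 396 to 435 over 7 of 7 genes. Most of the EGF/FGF sum was Cd24a, which averaged 272, 287 and 164 CPM, and Sox11, at 178, 144 and 77.7 CPM. Dcx averaged 1.29, 280 and 49.9 CPM, Dlx2 14.8, 238 and 76.8, and Tubb3 11.8, 165 and 45.5. Dcx, Dlx2 and Tubb3 thus rose from EGF/FGF to BMP/FGF, while the sum fell. Of 6 tested neuroblast markers, 4 passed upward and 1 downward for BMP against EGF/FGF. For BMP/FGF these counts were 4 and 2 against EGF/FGF, and 0 and 6 against BMP. The part of either cell type in the Prom1 result was not tested.

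Vcam1 (chr3:116109949-116129688, minus strand, 9 exons) showed the largest rise among the markers. Its EGF/FGF libraries stood at 216 and 208 CPM in ANS4 and at 166 and 167 in BL6. In BMP the ANS4 libraries stood at 717 and 674 CPM and the BL6 libraries at 516 and 449, and in BMP/FGF all were close together at 830, 797, 861 and 853 CPM. The 3 conditions did not overlap in any library, and the spread narrowed to 3.46% of the mean in BMP/FGF from 21.6% in BMP. Vcam1 rose by a log2 fold change of 1.63 in BMP (SE 0.10, FDR 3.58e-11) and of 2.16 in BMP/FGF (SE 0.10, FDR 9.53e-13), and BMP/FGF was 0.53 above BMP (SE 0.09, FDR 2.49e-04).

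The Vcam1 difference between the quiescent states depended on the line. It was 0.23 in ANS4 and 0.83 in BL6, and the lines differed in it by 0.60 (SE 0.09, FDR 5.31e-04), a call that held under all 18 alternatives that could be run. BL6 held less Vcam1 than ANS4 in EGF/FGF (log2 difference -0.35, FDR 0.00526) and in BMP (-0.53, FDR 2.28e-05), but in BMP/FGF the difference was 0.08 (95% confidence interval -0.06 to 0.21, FDR 0.692). Endothelial cells also carry VCAM1. The summed level of 6 endothelial markers of 8 listed was 39.2 to 47.4 CPM in EGF/FGF, 5.58 to 9.35 under BMP and 15.03 to 19.1 under BMP/FGF. Most of it was Flt1, at 39.7, 4.81 and 14.9 CPM on average, whereas Kdr was at 1.71, 3.16 and 1.69 CPM, higher in BMP than in EGF/FGF (FDR 0.00317), and Pecam1, Tek, Emcn and Ly6c1 averaged under 1 CPM in every condition. Their part in the Vcam1 result was not tested.

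The tetraspanins rose stepwise. Cd9 (chr6:125460266-125494791, minus strand, 8 exons) stood at 253 and 282 CPM in ANS4 and 222 and 223 in BL6 in EGF/FGF. BMP libraries held 288 and 332 CPM and 286 and 298, and BMP/FGF libraries 434 and 469 CPM and 464 and 467. Each step lifted all 4 libraries above all 4 of the step before, the first one narrowly, since the highest EGF/FGF library had 282 CPM and the lowest BMP library 286. Cd9 rose by 0.30 on the log2 scale in BMP (SE 0.07, FDR 9.76e-04) and by 0.91 in BMP/FGF (SE 0.07, FDR 1.83e-09), and was 0.61 higher in BMP/FGF than in BMP (SE 0.07, FDR 3.23e-06). These 3 calls held under all 22 alternatives.

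Cd81 (chr7:143052739-143067934, plus strand, 8 exons) encodes the closest partner of CD9 in tetraspanin microdomains. Its EGF/FGF libraries had 386 and 401 CPM in ANS4 and 331 and 336 in BL6. BMP libraries had 574 and 626 CPM and 440 and 626, and BMP/FGF libraries 720 and 712 CPM and 769 and 710. The order of the conditions was that of Cd9 with no overlap, and BL6 BMP replicate 1 stood apart at 440 CPM. The log2 fold change was 0.64 in BMP (SE 0.09, FDR 3.59e-06) and 1.01 in BMP/FGF (SE 0.09, FDR 1.13e-08), and the step between the quiescent states was 0.37 (SE 0.09, FDR 0.00346), with a range of 0.26 to 0.48 over 22 alternatives, all past the test. In the 6-group fit that step was 0.47 in BL6 (FDR 0.00135) and 0.26 in ANS4 (FDR 0.0725), with no difference between the lines past the test (0.22, SE 0.15, FDR 0.362). A noncoding gene on the opposite strand, R74862, overlaps an exon of Cd81 and was itself counted at 3.00 to 11.2 CPM, while the use of strand in counting is not given in the sources used here.

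The mean of Cd9 was 245 ± 28.5 CPM in EGF/FGF, 301 ± 21.4 in BMP and 459 ± 16.8 in BMP/FGF, and that of Cd81 was 363 ± 35.6, 566 ± 87.7 and 728 ± 27.9 CPM (SD, n = 4). Within a library the count ratio of Cd9 to Cd81 was 0.656 to 0.703 in EGF/FGF, 0.476 to 0.649 under BMP and 0.602 to 0.659 under BMP/FGF. The highest BMP value belonged to BL6 replicate 1, the library low in Cd81, and the other 3 were at most 0.530.

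Cd44 (chr2:102811141-102901665, minus strand, 19 exons in its longest transcript and 8 coding transcripts annotated) was the marker that fell under BMP4 alone and not with FGF2 present. In EGF/FGF it was at 295 and 265 CPM in ANS4 and 244 and 251 in BL6. In BMP it was at 192 and 180 CPM and 198 and 220, and in BMP/FGF at 271 and 289 CPM and 355 and 351. BMP libraries were below all others, whereas BMP/FGF and EGF/FGF overlapped. Cd44 fell by 0.42 on the log2 scale in BMP (SE 0.09, FDR 1.98e-04) and was 0.68 higher in BMP/FGF than in BMP (SE 0.09, FDR 8.27e-06). In BMP/FGF against EGF/FGF the pooled change was 0.25 (SE 0.09, FDR 0.0118), made up of 0.51 in BL6 (FDR 2.61e-06) and 0.00 in ANS4 (95% confidence interval -0.15 to 0.15, FDR 0.996). The lines differed by 0.51 (SE 0.10, FDR 0.00632). The pooled call was lost when any of BL6 BMP/FGF replicate 1, BL6 BMP/FGF replicate 2, BL6 EGF/FGF replicate 1 or BL6 EGF/FGF replicate 2 was left out, with FDR values from 0.0546 to 0.0652.

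Fut4 (chr9:14748320-14752393, minus strand, 1 exon) was barely transcribed. It had 9, 15, 20 and 11 counts in the EGF/FGF libraries, 0, 3, 0 and 1 in the BMP libraries and 3, 2, 4 and 6 in the BMP/FGF libraries. The mean was 0.712 ± 0.254 CPM in EGF/FGF, 0.0545 ± 0.0783 in BMP and 0.207 ± 0.0976 in BMP/FGF (SD, n = 4). The EGF/FGF libraries lay above all others, 7 of the 8 quiescent libraries had 4 counts or fewer, and no fold change is given at these counts. At this depth RNA of Fut4 allows no firmer statement. Fut9, which makes most Lewis x in brain and was named here after its values were seen, was at 46.3 CPM in EGF/FGF, 53.1 in BMP and 55.9 in BMP/FGF, with log2 fold changes of 0.20 in BMP (not past the test) and 0.27 in BMP/FGF (past it).

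Levels per length of the longest annotated transcript allow a rough comparison of genes with each other. Which transcripts were in use was not determined, and 8 coding transcripts are annotated for Cd44 and 10 for Prom1. Close orders may therefore depend on this choice of length. Vim led on this scale in all conditions, with a mean of 1228 CPM per kb in EGF/FGF, 2136 in BMP and 2159 in BMP/FGF. Cd81 and Cd9 followed, at 237 and 200 CPM per kb in EGF/FGF, where their ranges overlapped, and at 475 and 373 in BMP/FGF, where they did not. Nes held the fourth place in EGF/FGF at 92.9 CPM per kb and the seventh in BMP and BMP/FGF at 20.5 and 18.8. Vcam1 moved the other way, from 54.6 CPM per kb, overlapping Cd44 at 47.0, to the fourth place at 170 in BMP and 241 in BMP/FGF. Msi1 and Cd44 exchanged places, with overlapping ranges in BMP at 38.4 and 35.2 CPM per kb and separate ones in BMP/FGF at 35.5 and 56.4. Prom1 came next to last in every condition, at 5.55, 13.4 and 6.85 CPM per kb, and Fut4 last. Neighbours in these orders overlapped only where said.

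**Figure D3:**
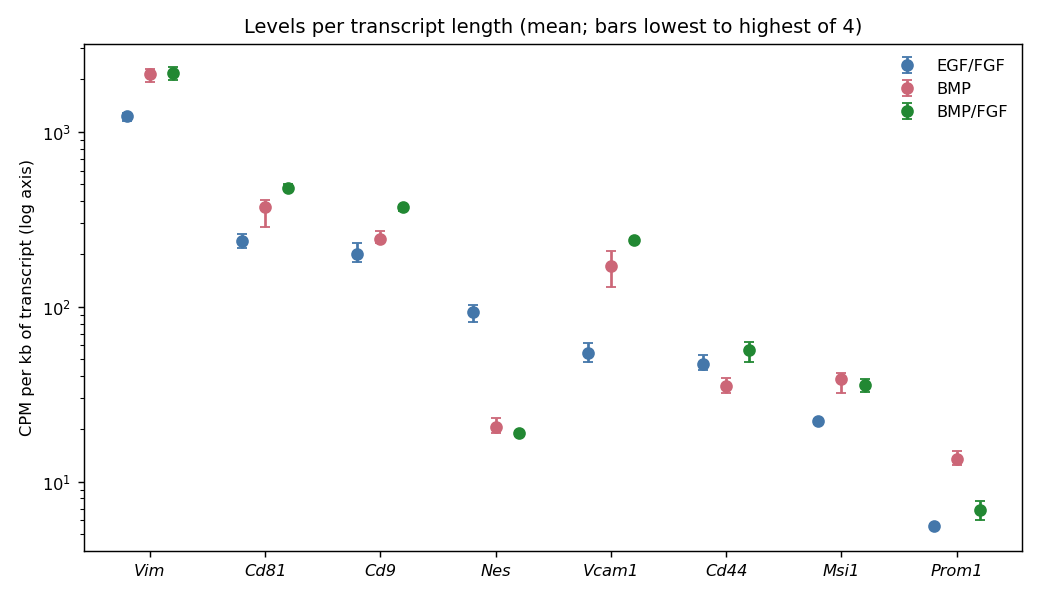
Level per kb of the longest transcript for the 8 tested markers (log axis, CPM per kb; points are means and bars run from the lowest to the highest of 4 libraries), ordered by the EGF/FGF mean. Nes drops from 92.9 to 20.5 and 18.8 CPM per kb while Vcam1 passes it on the way from 54.6 to 241, and Vim stays highest throughout.

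The direction of change was shared by the lines for the 8 markers in BMP and, Cd44 in ANS4 apart (0.00), in BMP/FGF against EGF/FGF. The interaction test, which asks whether BL6 and ANS4 changed unequally, passed for Cd44 and Nes in BMP against EGF/FGF (2 of 8, where 9.02% of all genes passed), for Vcam1 and Cd44 in BMP/FGF against EGF/FGF (2 of 8, 4.98%) and for Vcam1 in BMP/FGF against BMP (1 of 8, 13.5%). The first comparison is the least settled. Nes fell by 1.99 in ANS4 and by 2.35 in BL6 on the log2 scale (difference -0.35, SE 0.11, FDR 0.0467), and Cd44 fell by 0.59 and by 0.25 (difference 0.34, SE 0.10, FDR 0.0382), and each call was lost in 13 of 18 alternatives, with unchanged direction. In BMP/FGF against EGF/FGF the Vcam1 call (difference 0.42, SE 0.09, FDR 0.0159) was lost in 7 of 18, with FDR values up to 0.0961, namely without either BL6 EGF/FGF, either BL6 BMP/FGF or either ANS4 BMP/FGF library and without ANS4 EGF/FGF replicate 1. The Cd44 call there was lost in 1 of 18, without ANS4 BMP/FGF replicate 1 (FDR 0.0519). Leaving out 1 library at a time, the count of markers in BMP against EGF/FGF was 4 without BL6 BMP replicate 1, 1 without ANS4 BMP replicate 2 or ANS4 EGF/FGF replicate 2, and 0 without any of the other 9. In BMP/FGF against EGF/FGF it was 5 without either BL6 BMP replicate, 2 or 3 without ANS4 EGF/FGF replicate 2 or either ANS4 BMP replicate, and 0 or 1 without any of the other 7. In BMP/FGF against BMP it was 4 without BL6 BMP replicate 2, 2 without ANS4 BMP replicate 1 and 1 without any of the other 10. Counts over all genes moved as well: without BL6 BMP replicate 1 or replicate 2, in that order, they were 2437 and 1322 (1201 with all libraries) in the first comparison, 1369 and 1367 (663) in the second, and 2833 and 2213 (1801) in the third. Vim came close to the threshold, with a BL6 minus ANS4 difference of 0.34 in BMP/FGF against EGF/FGF (SE 0.10, FDR 0.0514). In BMP/FGF against BMP its difference was 0.28 (SE 0.10, FDR 0.0649).

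In level, BL6 differed from ANS4 in EGF/FGF for 3 of 8 markers, where 6.75% of all genes did: Vcam1 and Cd9 were lower (log2 difference -0.27 for Cd9, FDR 0.0371) and Nes was higher (0.27, FDR 0.0360). That count was 5 and 4 without BL6 BMP replicates 1 and 2, 3 without either ANS4 BMP replicate, 0 without either BL6 EGF/FGF replicate, and 1 without any of the other 6. In BMP only Vcam1 passed (1 of 8, against 23.0%), and this count was 2 without BL6 BMP replicate 1 and 5 without replicate 2. In BMP/FGF only Cd44 passed, higher in BL6 by 0.33 (FDR 0.0292, 1 of 8, against 0.736%), while 3 markers passed without either BL6 BMP replicate and 0 without any of the 4 BMP/FGF libraries. Over all genes, the lines differed without BL6 BMP replicate 1 or replicate 2, in that order, for 1824 and 1840 genes in EGF/FGF (898 with all libraries), 3599 and 2976 in BMP (3066) and 501 and 508 in BMP/FGF (98), so that the background of these marker counts rose with them in EGF/FGF and BMP/FGF. The Cd9 call was lost in 9 of 18 alternatives, the Nes call in 10 and the Cd44 call in 7.

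**Figure D4:**
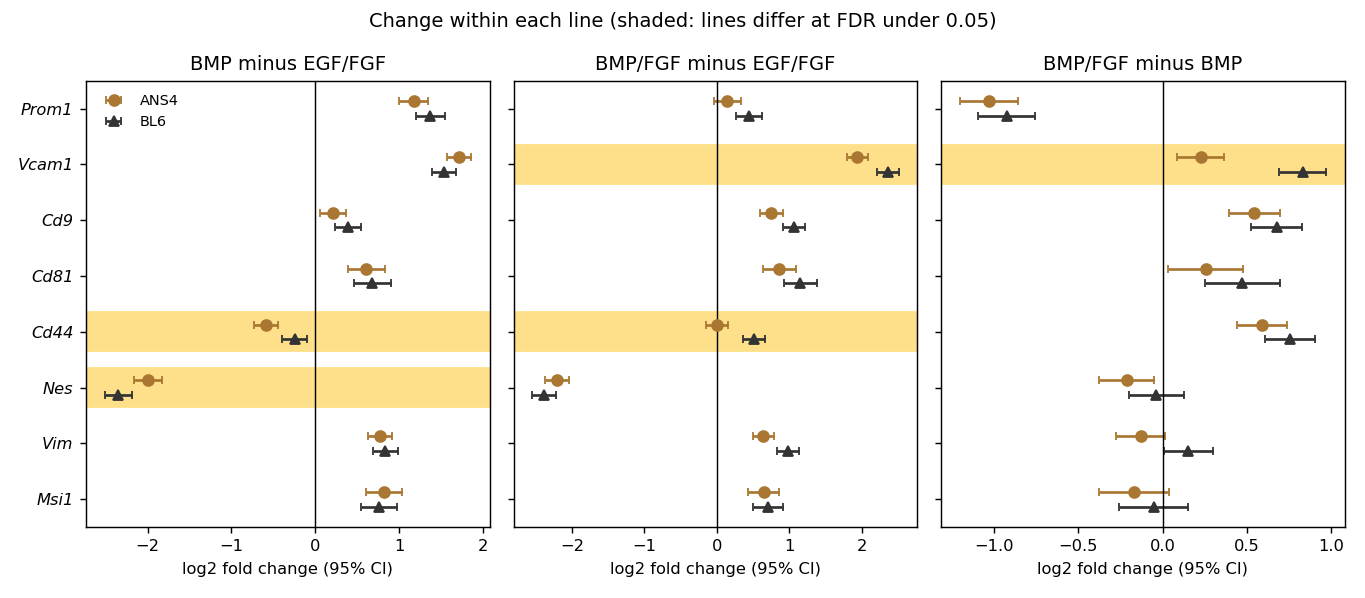
Log2 fold change with its 95% confidence interval in ANS4 (circles) and BL6 (triangles) for each comparison, from the 6-group fit. Shaded rows mark the 5 cases in which the lines differed at an FDR under 0.05: Cd44 and Nes in the first panel, Vcam1 and Cd44 in the second and Vcam1 in the third.

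Across the 12 libraries, Vim and Msi1 ran closely together (Pearson r of log2 CPM 0.96), as did Vcam1 and Cd81 (0.94), and Nes ran against Vim (-0.97), Vcam1 (-0.96) and Msi1 (-0.95). Prom1 was less closely tied to these, with r of 0.70 to Msi1, 0.65 to Vim and -0.63 to Nes, and had 0.02 to Cd9 and -0.67 to Cd44. Cd44 had -0.04 to Vim and 0.08 to Nes. These values describe 3 conditions with 4 libraries each, which fix most of them. Among 12458 other tested genes whose mean reached 1 CPM, those with the most similar profiles were Arhgap32 (0.996) and Sema6d (0.989) for Prom1, Timp3 (0.997) and Efr3b (0.996) for Vcam1, Eci2 (0.993) and Bst2 (0.989) for Cd9, and Micall2 (0.990) and Tnfrsf1a (0.989) for Cd81. For Nes they were Cse1l (0.998) and Farsb (0.997), for Vim Gna13 (0.992) and 1810013L24Rik (0.992), for Msi1 Gask1a (0.986) and Lrp10 (0.983), and for Cd44, with the weakest likeness, Gpd1l (0.952) and Slc35f1 (0.951).

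Genes related to the markers by function give the setting. Their counts stand beside a background over all 13312 tested genes of 79.6% past the test in BMP against EGF/FGF (5426 higher, 5170 lower), 78.9% in BMP/FGF against EGF/FGF (5449 and 5057) and 41.4% in BMP/FGF against BMP (2674 and 2839), with medians near 0, so that a list with most genes past the test is not unusual. Of 10 tested intermediate filament genes and their linkers other than Nes and Vim (14 listed), 3 were higher and 5 lower in BMP than in EGF/FGF, 3 higher and 6 lower in BMP/FGF, and 1 higher and 5 lower in BMP/FGF than in BMP. Gfap, the type III filament of astrocytes and quiescent NSCs, went from 121 CPM to 980 in BMP and 1926 in BMP/FGF (log2 fold change 3.04 in BMP, FDR 1.86e-13, and FDR 8.42e-15 in BMP/FGF), a larger rise than that of Vim and, unlike Vim, also between the quiescent states (0.97, FDR 3.47e-06). The genes that fell included the lamin gene Lmnb1, from 302 CPM to 92.8 and 49.7, and the neurofilament gene Nefl, from 5.06 CPM to 0.978 and 0.727. The list's median log2 fold change was -0.39, -0.41 and -0.29 in the 3 comparisons.

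Of 21 tested tetraspanins and their partners (24 listed), 14 were higher and 1 lower in BMP than in EGF/FGF, 16 higher and 2 lower in BMP/FGF, and 7 higher and 5 lower in BMP/FGF than in BMP, with medians of 0.81, 0.71 and -0.04. Tspan7 rose from 161 CPM to 647 and 641 (log2 fold changes 2.00 and 1.99, FDR 6.46e-15 and 6.84e-15) and Tspan17 from 10.0 CPM to 42.7 and 54.8. Between the quiescent states Cd63, a tetraspanin of endosomes and exosomes, was higher in BMP/FGF by 0.55 (FDR 4.43e-05), and Tspan14 was lower by a log2 difference of -0.59 (FDR 5.86e-07). Ptgfrn, which encodes a direct partner of CD9 and CD81, fell from 30.7 CPM to 14.3 in BMP and stood at 22.9 in BMP/FGF, a rise between the quiescent states of 0.68 (FDR 2.24e-05).

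Among 9 tested adhesion receptors and relatives of VCAM1 (13 listed), 3 were higher and 5 lower in BMP, 4 higher and 4 lower in BMP/FGF, and 5 higher and 1 lower in BMP/FGF than in BMP. Itga4, encoding a chain of the VCAM1-binding integrin named above, moved opposite to Vcam1 from EGF/FGF to both quiescent states. It fell from 24.2 CPM in EGF/FGF to 3.01 in BMP and 2.63 in BMP/FGF (log2 fold changes -3.00 and -3.17, FDR 9.23e-12 and 6.24e-12). Its partner Itgb1 averaged 1378, 664 and 905 CPM, with BMP/FGF above BMP by 0.45 (FDR 2.18e-05). Itga9, another integrin chain gene of the list, averaged 6.03, 4.27 and 8.33 CPM. Like Vcam1 it was higher in BMP/FGF than in BMP (log2 difference 0.96, FDR 3.10e-05). Itgav fell from 578 CPM to 199 and 328.

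Of 14 tested genes of hyaluronan synthesis, hyaluronan binding and CD44 linkage (16 listed), 2 were higher and 8 lower in BMP, 6 higher and 8 lower in BMP/FGF, and 3 higher and 5 lower in BMP/FGF than in BMP. Spp1, encoding the CD44 ligand osteopontin, fell from 94.4 CPM to 2.19 and 3.25, and Hmmr, encoding a hyaluronan receptor that is also a spindle protein, fell from 183 CPM to 19.4 and 11.1. Ezr, which tethers CD44 to actin, rose from 116 CPM to 411 and 376 (log2 fold changes 1.82 and 1.69). Has2, a hyaluronan synthase, and Ncan, a hyaluronan-binding proteoglycan, shared with Cd44 a higher level in BMP/FGF than in BMP, at 3.82 against 1.16 CPM and 864 against 424 CPM (FDR 5.60e-05 and 1.97e-08).

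Of 13 tested relatives and companions of MSI1 (16 listed), 7 were higher and 5 lower in BMP, 5 higher and 6 lower in BMP/FGF, and 1 higher and 8 lower in BMP/FGF than in BMP. The neuronal RNA-binding gene Elavl4 rose from 3.91 CPM to 32.7 in BMP and stood at 8.78 in BMP/FGF, and Numbl, encoding a NUMB-like cell fate protein, went from 21.7 CPM to 52.3 and 42.5. Msi2, the paralog of Msi1 and named after its values were seen, was at 373, 436 and 464 CPM with log2 fold changes of 0.22 and 0.31. Of 12 tested fucosylation genes (17 listed), 1 was higher and 4 lower in BMP, 2 higher and 5 lower in BMP/FGF, and 2 higher and 1 lower in BMP/FGF than in BMP. Fut8, encoding the core fucosyltransferase, fell from 144 CPM to 95.3 and 109, and Gmds, encoding an enzyme of GDP-fucose synthesis, from 9.16 CPM to 5.28 and 6.61.

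Of 19 other tested sorting markers (20 listed), 10 were higher and 6 lower in BMP, 11 higher and 7 lower in BMP/FGF, and 10 higher and 4 lower in BMP/FGF than in BMP. Aqp4, an astrocyte water channel, had the largest change of the list, from 82.3 CPM to 1049 and 1362 (log2 fold changes 3.68 and 4.09). Thy1 rose from 4.63 CPM to 22.1 and 34.1. Cxcr4, the receptor for CXCL12, rose from 16.3 CPM to 111 in BMP and stood at 54.0 in BMP/FGF, so that like Prom1 it was lower with FGF2 present (log2 difference -1.04, FDR 9.85e-08). Cd24a, a marker of neuroblasts and ependymal cells, was at 272, 287 and 164 CPM.

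**Figure D5:**
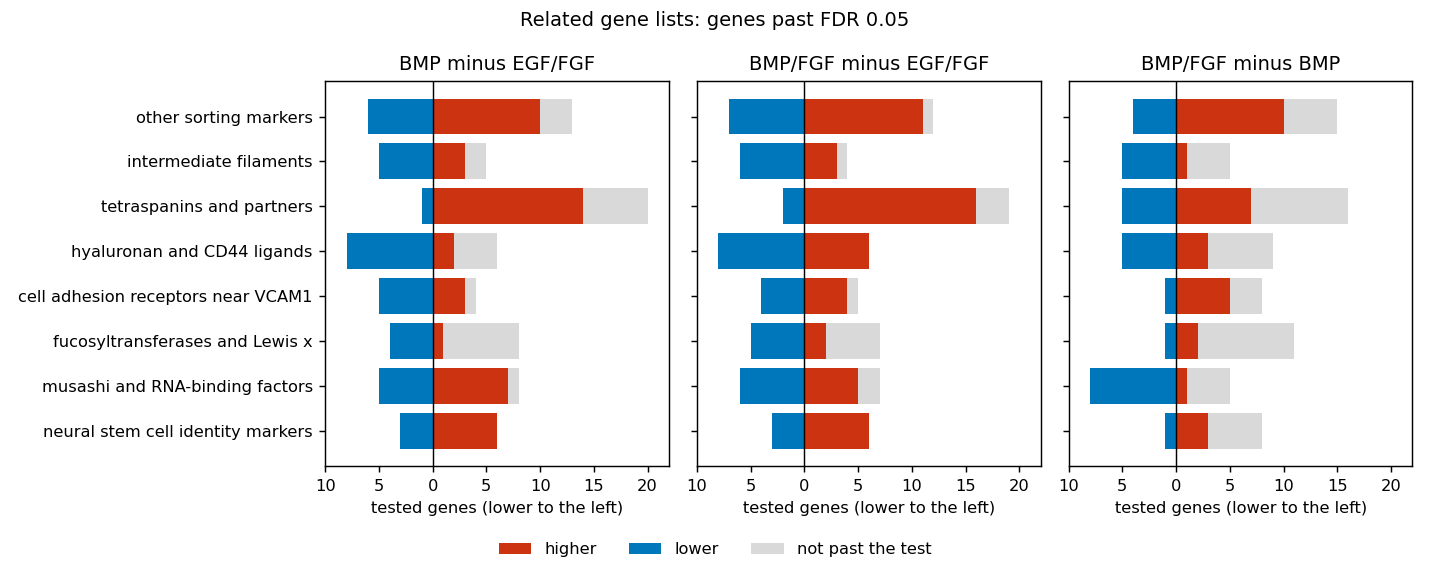
Number of tested genes of 8 related lists that were higher (right, red), lower (left, blue) or not past an FDR of 0.05 (grey) in each comparison; the horizontal axis counts genes. The tetraspanin list leans to higher values in the first pair of comparisons, with 14 against 1 and 16 against 2, and the musashi list to lower values in the third, with 1 against 8.

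Levels of the NSC identity genes and of proliferation moved beside the markers. Of 9 tested identity genes, 6 were higher and 3 lower in BMP and in BMP/FGF, and 3 higher and 1 lower in BMP/FGF than in BMP. Sox9 rose from 182 CPM to 743 and 679, and Fabp7 fell from 2409 CPM to 475 in BMP and stood at 1385 in BMP/FGF (log2 difference between the quiescent states 1.58, FDR 1.30e-07). All 8 proliferation markers fell in both quiescent states and were lower in BMP/FGF than in BMP, and their sum was 2463 to 2925 CPM in EGF/FGF, 415 to 608 under BMP and 297 to 314 under BMP/FGF. Astrocyte markers, which mature astrocytes and quiescent NSCs share, summed to 1635 to 2015 CPM, 4823 to 6326 and 8096 to 8286 over 7 of 8 listed genes. Of these 7, 6 were higher and 0 lower in BMP, 7 higher in BMP/FGF and 5 higher in BMP/FGF than in BMP. CD44 and CD9 are also carried by astrocytes and microglia. Of the microglial markers, Itgam averaged 9.89, 3.37 and 5.43 CPM and Cd68 4.12, 1.15 and 2.43. Both were highest in EGF/FGF and lowest in BMP, with a rise from BMP to BMP/FGF (FDR 0.00224 and 0.00527). P2ry12 was lowest in EGF/FGF, at 1.37, 2.15 and 2.41 CPM, and Csf1r and Tmem119 were at most 0.103 and 0.223 CPM in any library. Of 4 tested microglial markers (12 listed), 1 was higher and 2 lower in BMP than in EGF/FGF. In BMP/FGF 2 were higher and 2 lower, and 3 were higher and 0 lower in BMP/FGF than in BMP. Oligodendrocyte markers summed to 176 to 222 CPM, 636 to 682 and 701 to 720 over 6 of 6 genes, with Mog at most 0.261 CPM, and mural and fibroblast markers to 5.25 to 6.11, 6.22 to 7.47 and 9.70 to 13.6 over 7 of 8. The part of these cell types in the marker results was not tested.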

How the data were processed

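RNA of the NSC cultures was sequenced in 12 low-input BGISEQ-500RS libraries. After trimming with Trim Galore 0.5.0, the authors mapped reads by kallisto 0.44.0 to mm10 transcripts, summarised them per gene with Tximport and deposited estimated counts, with a second table of log2 values (the rlog of DESeq2 1.27.32). The deposited estimated counts, rounded to whole numbers, were the main data, and the deposited log2 values served for 1 alternative.

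Genes were filtered with filterByExpr by condition (13312 kept, 4053 not), scaled by TMM and tested with edgeR 4.0.16 (R 4.3.3, glmQLFit and glmQLFTest, two-sided), with condition and line as terms over all 12 libraries, and Benjamini-Hochberg adjustment over all tested genes. A model with 6 groups gave changes within lines and their difference (BL6 change minus ANS4 change). Alternatives used DESeq2 1.42.0, limma 3.58.1, other scalings, no filter, 1 line, the 8 libraries compared, no line term, a replicate block, and each library left out.

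The 9 markers were always named. From each related list, up to 3 genes per comparison were named with the largest change past the test, a mean of at least 1 CPM and the same sign in both lines, and the 2 most similar profiles per marker. A gene named outside this rule is given for its role as a marker or partner and was chosen with its values in view. Members and lists were chosen with earlier results of these data known. Positions are from GENCODE vM21 (GRCm38). Intervals and floors cover counting error or the spread between libraries only. The summed level of microglial markers is not reported here.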

Additional observations from a re-analysis of the deposited data

Results flagged for a closer look

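Cd9 in ANS4 BMP/FGF replicate 1 stood at 434 CPM, below the other 3 BMP/FGF libraries at 464 to 469 CPM. Its gap took 0.863 of the group's range, above Dixon's 95% critical ratio for 4 samples. It was the only such case among 27 marker and condition groups, and chance alone gives about 1 in 20.

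The lines changed unequally in 5 of 24 tests (8 markers in 3 comparisons). Over all tested genes 9.02% passed in BMP against EGF/FGF, 4.98% in BMP/FGF against EGF/FGF and 13.5% in BMP/FGF against BMP. For Vcam1 the BL6 minus ANS4 difference in log2 fold change was 0.60 in BMP/FGF against BMP (FDR 5.31e-04) and 0.42 in BMP/FGF against EGF/FGF (FDR 0.0159). For Cd44 it was 0.34 in BMP against EGF/FGF (FDR 0.0382) and 0.51 in BMP/FGF against EGF/FGF (FDR 0.00632). For Nes it was -0.35 in BMP against EGF/FGF (FDR 0.0467). The Nes and Cd44 calls in BMP against EGF/FGF were each lost in 13 of 18 alternatives. In BMP/FGF against EGF/FGF the Vcam1 call was lost in 7 of 18 and the Cd44 call in 1 of 18. With 1 line per strain, line and strain cannot be told apart.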

How the results depend on the processing

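The alternative values were tallied for all the markers' changes, but for line differences and line-dependent changes only where these passed as reported. In that tally 631 kept direction and side of the threshold, 68 lost the call, 2 gained one and 7 turned sign. Line results not past the test as reported are outside the tally, and some of them gained a call, as the counts of markers below show. The sign turned for Cd44 in BMP/FGF against EGF/FGF with ANS4 alone (-0.00119), and for Vim in BMP/FGF against BMP with ANS4 alone (-0.13), with library size only (-0.0305) and on leaving out 1 library, where the values ran from -0.0454 to 0.0596 and were -0.000307 without ANS4 BMP replicate 1, -0.0454 without BL6 BMP replicate 1, and -0.0255 and -0.0355 without BL6 BMP/FGF replicates 1 and 2. Counts of markers differing between the lines in BMP were 3 with library size only (1 as reported). In BMP/FGF they were 2 with DESeq2 and 0 with library size only, limma-trend or no filter (1 as reported), and in EGF/FGF 1 with limma-trend or no filter (3 as reported). Markers changing unequally in BMP against EGF/FGF numbered 1 with library size only and 0 with limma-trend or no filter (2 as reported), and in BMP/FGF against BMP 2 with DESeq2 (1 as reported). Over all tested genes, BL6 and ANS4 differed in BMP/FGF for 98 as reported, 218 with DESeq2, 49 with limma-trend and 62 with no filter. The cause was not tested.

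With 1 library left out, and a lone remaining library assumed to vary like the others, markers past the test ranged over 8 to 9 for BMP against EGF/FGF, 7 to 9 for BMP/FGF against EGF/FGF and 5 to 6 for BMP/FGF against BMP, where 9 includes Fut4 past the filter. Those differing between lines numbered 0 to 5 within EGF/FGF, 1 to 5 within BMP and 0 to 3 within BMP/FGF, and those changing unequally 0 to 4, 0 to 5 and 1 to 4. Over all genes, line differences numbered 186 to 1840, 1887 to 3599 and 15 to 508, and unequal changes 612 to 2437, 184 to 1369 and 897 to 2833.

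Deviations of same-numbered replicates correlated at -0.07 to 0.05 over 13312 genes and, over genes with a mean log2 CPM above 3, at -0.18 to 0.31 (highest between ANS4 EGF/FGF and ANS4 BMP), of both signs, so the numbers were not taken to pair the samples. With a replicate block, 1 marker in place of 2 changed unequally in BMP against EGF/FGF, since Cd44 reached an FDR of 0.0504. Across the other scalings the median of all genes moved by at most 0.04, 0 called list genes changed sign and 10 calls of list genes were lost. These 10 are summed over scalings, comparisons and lists, so that a gene can be counted more than once. Over all tested genes the largest loss was of 503 calls, in BMP/FGF against BMP with library size only. Depth limits Fut4 alone among the markers. Without the filter, edgeR's test gave Fut4 an FDR of 1.07e-04 in BMP and 0.00499 in BMP/FGF against EGF/FGF, and 0.100 between the quiescent states. These values rest on 0 to 3 counts in the BMP libraries and 2 to 6 in the BMP/FGF libraries. Where Fut4 passed the filter with 1 library left out, it did so only through EGF/FGF, where it was highest. None of these calls is taken as support for a change of Fut4.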
